A study of Mus musculus with 4 samples.

Results

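A set of 10 genes of the intestinal crypt base and of Wnt signalling were followed across 4 arrays: Lgr5, Ascl2, Smoc2, Olfm4, Axin2, Lrig1, Sox9, Rnf43, Znrf3 and Myb. They were chosen by name, as markers of crypt base stem cells, targets and regulators of the Wnt pathway, and make up 10 of the 19938 genes that the platform annotation names. Each was represented by 1 probe set. The cells were colonic epithelium of C57BL/6 mice, detached by EDTA; the mice were aged 6 to 8 weeks, and the cells were taken on day 12 of a model of colitis-associated cancer. Every mouse, wild type included, had received azoxymethane at 10 mg/kg, a colon carcinogen, and after 5 days dextran sulfate sodium at 3.5% for 5 days, which injures the colonic lining. One array was made from each genotype. DKO carried deletions of both Bmi1 and Mel18 in intestinal epithelial cells (Bmi1ΔIEC Mel18ΔIEC), Bmi1_KO only that of Bmi1 (Bmi1ΔIEC), Mel18_KO only that of Mel18 (Mel18ΔIEC), and WT neither. Bmi1 and Mel18 (gene symbol Pcgf2) encode related subunits of Polycomb repressive complex 1. The sources used here do not give the Cre driver, the deleted exons or the number of mice behind an array. No sorting step is described, so RNA of other cells released with the epithelium is measured with it, and in such a bulk sample fewer cells of a type and less RNA per cell cannot be told apart.

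Colonic crypts are renewed by stem cells at their base, whose identity depends on Wnt signals from the surrounding tissue. Wnt proteins bind Frizzled receptors and the co-receptors LRP5 and LRP6, which stabilises beta-catenin, and beta-catenin with TCF factors switches on target genes. R-spondins, bound by receptors of the LGR family, prolong the signal by removing the membrane ubiquitin ligases RNF43 and ZNRF3, which otherwise clear Frizzled from the cell surface. Several of the 10 genes are at once targets and regulators of this loop.

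The values below are log2 of the deposited intensity, and each difference is between single arrays, so none has a replicate error. Among Bmi1_KO, Mel18_KO and WT, the difference of a pair of arrays had a scaled median absolute deviation of 0.19 to 0.22 across 12526 genes, which serves as a yardstick for a typical gene and includes true differences. The same measure was 0.55 to 0.57 for the pairs that hold DKO. Bmi1 read 7.64 on DKO and 7.43 on Bmi1_KO, against 7.25 on WT, and Pcgf2 read 6.81 on DKO and 6.84 on Mel18_KO, against 6.96 on WT. Neither was clearly lower where deleted, but probe sets of this array spread over the whole transcript and the deleted part is not known here, so they do not check the labels. The WT array carried transcripts of the seminal vesicle (summed intensity of 7 such genes 133 on DKO, against 330 on Bmi1_KO, 134 on Mel18_KO and 13768 on WT). Svs2 and Svs5 were over the floor on Bmi1_KO too, at 6.82 and 6.18. Because of this tissue signal DKO is also set against the mean of the single deletions, which does not use WT.

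The promoters of the genes that differed furthest in each direction show how unlike their sequence contexts were. For Ascl2, Myb and Lrig1, the lowest of the 10 on DKO against WT, and for Olfm4, the only one that was higher, the 250 bases before the annotated start are given from RefSeq (GRCm38.p6), 5′ to 3′ on the strand of the gene, with each CG dinucleotide in capitals. They are shown because CG-rich promoters are the usual sites of Polycomb complexes in mammals. Polycomb binding was not measured here, and a link between these sequences and the differences was not tested. Ascl2 lies at chr7:142969265-142969514 on the minus strand, Myb at chr10:21160985-21161234 on the minus strand, Lrig1 at chr6:94700146-94700395 on the minus strand and Olfm4 at chr14:80000052-80000301 on the plus strand.
Ascl2: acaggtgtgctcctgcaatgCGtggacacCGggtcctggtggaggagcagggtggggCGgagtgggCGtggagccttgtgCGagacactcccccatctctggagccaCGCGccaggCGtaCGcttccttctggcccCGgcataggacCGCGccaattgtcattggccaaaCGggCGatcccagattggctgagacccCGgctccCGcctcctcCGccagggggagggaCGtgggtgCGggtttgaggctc
Myb: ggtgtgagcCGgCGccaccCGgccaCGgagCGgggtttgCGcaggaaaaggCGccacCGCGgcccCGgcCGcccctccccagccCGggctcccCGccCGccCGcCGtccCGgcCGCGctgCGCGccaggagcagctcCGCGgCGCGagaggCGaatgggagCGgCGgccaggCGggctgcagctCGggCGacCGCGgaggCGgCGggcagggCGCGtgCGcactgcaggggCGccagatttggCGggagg
Lrig1: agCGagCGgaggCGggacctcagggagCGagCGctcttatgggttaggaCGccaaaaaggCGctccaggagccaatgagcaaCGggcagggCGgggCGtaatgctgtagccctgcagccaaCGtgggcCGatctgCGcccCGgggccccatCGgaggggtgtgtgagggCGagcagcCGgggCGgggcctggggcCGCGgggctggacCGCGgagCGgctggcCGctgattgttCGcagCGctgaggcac
Olfm4: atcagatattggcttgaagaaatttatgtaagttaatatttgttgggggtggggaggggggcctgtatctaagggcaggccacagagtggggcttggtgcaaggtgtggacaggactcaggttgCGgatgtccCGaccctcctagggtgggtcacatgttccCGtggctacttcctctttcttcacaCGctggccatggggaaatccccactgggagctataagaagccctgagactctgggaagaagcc
The window held 19 CG dinucleotides at Ascl2, 40 at Myb, 26 at Lrig1 and 4 at Olfm4, against a median of 6 over 32851 mouse promoters. Axin2 had 24, and the 2 annotated starts of Rnf43 had 8 and 2, so CG content was not shared by all of the lower genes. Promoters were found for 6 of the 10 genes. The TCF/LEF core letters CTTTGA or CTTTGT, searched on both strands, were in 0 of these 7 windows and in 27.6% of all promoters, which says only that these letters are not in these 250 bases.

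Lgr5, Ascl2 and Smoc2, the genes most closely tied to crypt base stem cells, were all lower on DKO and, apart from Ascl2 on Mel18_KO, within 0.20 of WT on the single-deletion arrays. Lgr5 (probe set 10372503), the R-spondin receptor that marks these cells, read 6.29 on DKO, against 7.98 on Bmi1_KO, 7.73 on Mel18_KO and 7.78 on WT. DKO was thus low and the other 3 arrays lay within 0.25 of each other. The DKO minus WT difference was -1.49, or 2.82-fold lower, and against the single deletions it was -1.57. Ascl2 (probe set 10569385), a transcription factor required for the stem cell programme, read 5.83 on DKO, against 7.89 on Bmi1_KO, 7.24 on Mel18_KO and 7.78 on WT. Here Mel18_KO was also low, by -0.54 against WT, although far less than DKO at -1.95 (3.87-fold lower). The DKO value lay under the floor of 6 used for dim genes, where signal is close to background, so the size of this difference is rough. Smoc2 (probe set 10441902), a secreted matrix protein of the Lgr5 cell signature, read 7.26 on DKO, against 8.40 on Bmi1_KO, 8.19 on Mel18_KO and 8.23 on WT. Its difference of -0.98 was just short of 2-fold against WT and was -1.04 against the single deletions. All 3 genes had the same order of arrays, with Bmi1_KO highest, then WT, then Mel18_KO and DKO, but for Lgr5 and Smoc2 the neighbours in that order above DKO differed by no more than 0.20.

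**Figure D1:**
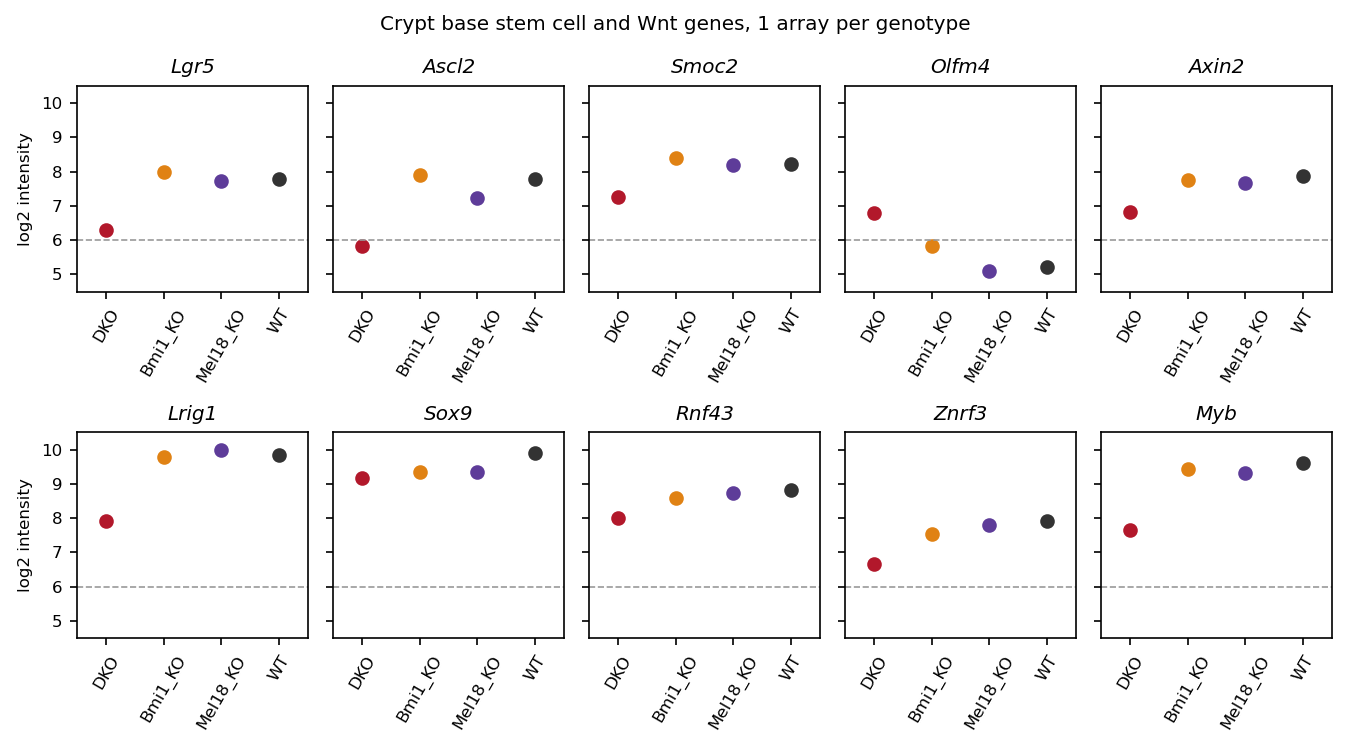
Log2 intensity of each of the 10 genes on the 4 arrays (DKO, Bmi1_KO, Mel18_KO, WT), 1 point per array with no error bar because each genotype had 1 array; the dashed line is the floor of 6. DKO is the lowest array for 9 of the genes and the highest for Olfm4.

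Lrig1 and Myb were also lower on DKO, by amounts close to that of Ascl2. Lrig1 (probe set 10546510), a membrane protein that dampens ERBB receptors and marks a crypt stem cell population, read 7.93 on DKO, against 9.79 on Bmi1_KO, 10.00 on Mel18_KO and 9.84 on WT. Only DKO was low, by -1.91 against WT (3.76-fold) and -1.97 against the single deletions, and the other arrays spanned 0.21. Myb (probe set 10368199), a transcription factor needed for proliferation of colonic progenitors and also expressed in blood cell precursors, read 7.67 on DKO, against 9.43 on Bmi1_KO, 9.32 on Mel18_KO and 9.61 on WT. It was 3.85-fold lower on DKO than on WT (-1.94), and the 3 other arrays differed by at most 0.29. Both genes stayed over the floor on every array.

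The feedback regulators of Wnt signalling, Axin2, Rnf43 and Znrf3, were lower on DKO by smaller amounts. Axin2 (probe set 10382228), a scaffold of the complex that degrades beta-catenin and a widely used readout of the pathway, read 6.83 on DKO, against 7.75 on Bmi1_KO, 7.66 on Mel18_KO and 7.88 on WT. DKO was low by -1.06 against WT, 2.08-fold, and by -0.88 against the single deletions. The ubiquitin ligases kept the same order of arrays, WT, Mel18_KO, Bmi1_KO and DKO from high to low. Rnf43 (probe set 10380116) read 8.01 on DKO, against 8.59 on Bmi1_KO, 8.72 on Mel18_KO and 8.83 on WT, a difference of -0.82 between DKO and WT that did not reach 2-fold. Znrf3 (probe set 10383982) read 6.67 on DKO, against 7.55 on Bmi1_KO, 7.79 on Mel18_KO and 7.91 on WT. DKO was low by -1.24, or 2.37-fold. Against the single deletions Znrf3 was just past 2-fold lower. For Znrf3 Bmi1_KO was also below WT, by 0.36, more than the yardstick, whereas Mel18_KO was within it.

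Sox9 and Olfm4 departed from this pattern. Sox9 (probe set 10382328), a transcription factor of crypt base and progenitor cells, read 9.16 on DKO, against 9.34 on Bmi1_KO, 9.35 on Mel18_KO and 9.89 on WT. All 3 deletion arrays were low, by -0.73, -0.55 and -0.54 against WT. DKO differed from the single deletions by only -0.18, less than the 0.55 to 0.57 given above for pairs that hold DKO. The difference rests on the WT array, which carried most of the seminal vesicle signal, and the part of that tissue in it was not tested. Olfm4 (probe set 10416689), a secreted glycoprotein that marks stem cells of the mouse small intestine and is also made by a subset of neutrophils, read 6.79 on DKO, against 5.82 on Bmi1_KO, 5.11 on Mel18_KO and 5.22 on WT. It was the only one of the 10 that was higher on DKO, by 1.57 (2.96-fold) against WT and 1.33 against the single deletions. It passed the floor on DKO alone and read close to background on the other 3 arrays, so its presence among the measured genes already required a high DKO value.

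Counted together, 6 of the 10 genes passed 2-fold in the lower direction between DKO and WT and 1 in the higher, where 8.19% and 7.33% of all 12526 genes did. The 1 higher gene, here and against the single deletions, was Olfm4. It passed the floor on DKO alone, so its count cannot be weighed against the share of all genes. The median difference of the 10 genes was -1.15, against -0.05 over all genes. Axin2 at -1.06 lay just inside the 2-fold limit and Smoc2 at -0.98 just outside it. Against the mean of the single deletions 6 were again lower and 1 higher, with 6.51% and 7.33% of all genes. The genes lower were Lgr5, Ascl2, Smoc2, Lrig1, Znrf3 and Myb, so Smoc2 took the place of Axin2. The DKO array enters both comparisons, so the second is no independent repeat of the first. Cyclic loess scaling shifted the split of all genes against the single deletions to 1047 higher and 555 lower, in place of 918 and 816, and left 4 of the 10 genes lower and 1 higher. DKO was the lowest of the 4 arrays for 9 of the 10 genes and for 46.0% of all genes.

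With the single deletions, differences of the 10 genes from WT were below 2-fold, and some exceeded the yardstick. On Bmi1_KO 0 of 10 were 2-fold lower and 0 higher, where 0.359% and 0.551% of all genes were, and on Mel18_KO the counts were also 0 and 0, beside 0.814% and 0.144%. With shares this small, counts of 0 say nothing particular about the 10 genes. On Bmi1_KO the median was -0.09, with Sox9 at -0.55 and Znrf3 at -0.36 lowest. On Mel18_KO the median was -0.12, with Sox9 and Ascl2 at -0.54 lowest and Lrig1 at 0.17 highest. Olfm4 gave 0.59 and -0.11, but it was under the floor on all 3 arrays compared. Among the genes over the floor on both single-deletion arrays, Ascl2 had the widest gap between them and was higher on Bmi1_KO than on Mel18_KO by 0.65.

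**Figure D2:**
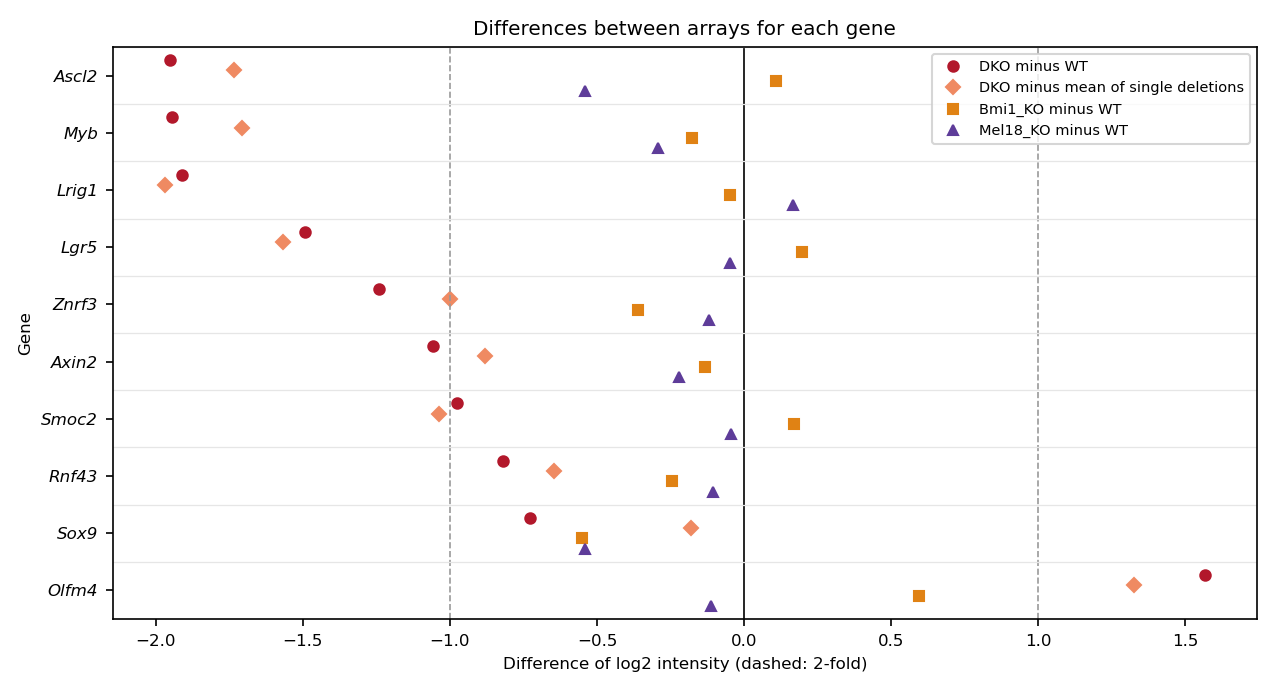
Differences of log2 intensity for the 10 genes, ordered by DKO minus WT, with 1 symbol per comparison; dashed lines mark 2-fold. The symbols of DKO against WT and of DKO against the single deletions lie left of 0 for 9 genes, while those of the single deletions against WT all lie between -0.55 and 0.59, the upper end being Olfm4 under the floor.

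To set DKO against the sum of the single differences, its departure from additivity was taken: the DKO minus WT difference less those of Bmi1_KO and Mel18_KO. Of the 10 genes 5 were at least 2-fold below additivity, Lrig1 (-2.03), Lgr5 (-1.64), Ascl2 (-1.52), Myb (-1.47) and Smoc2 (-1.10), and Olfm4 was above it (1.09, with 3 of its 4 values under the floor), where 6.43% and 8.19% of all genes lay below and above. With cyclic loess 521 of all genes lay below and 1203 above, in place of 805 and 1026, and 4 of the 10 genes lay below and 1 above. The Wnt feedback genes departed less, at -0.76 for Znrf3, -0.70 for Axin2 and -0.47 for Rnf43, and Sox9 was on the other side at 0.37. All 4 arrays enter this value once and its error is unknown. The only test that the layout allows is limma's for the average change with loss of each gene, with both losses as terms. The test has 1 residual degree of freedom, which also holds any departure from additivity. It thus gives a gene that departs a larger error, and an uncalled gene cannot be taken as unchanged. It called 0 of the 10 genes for loss of Bmi1 and 0 for loss of Mel18 after Benjamini-Hochberg adjustment, as it called 0% of all genes for either. At an unadjusted p under 0.05 it listed 324 genes for Bmi1 and 138 for Mel18, which are 2.59% and 1.10% of all genes, fewer than that threshold gives by chance, so a gene on either list has no support from it. Olfm4 was on the first (average change 1.14 ± 0.35, SE) and Ascl2 on the second (-1.30 ± 0.44, SE). The limma adjusted p was at least 0.849 for the 10 genes with loss of Bmi1 and 0.952 with loss of Mel18.

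Genes that act upstream in the Wnt pathway differed between DKO and WT in both directions, and few passed 2-fold. The counts in the lists that follow are to be read beside the 8.19% of all genes that were lower and the 7.33% that were higher. Among the receptors and ligases of the R-spondin module, 5 of 9 genes were over the floor, and 2 of them, Lgr5 and Znrf3, were 2-fold lower on DKO. Lgr4, the R-spondin receptor found throughout the crypt, read 11.11 on DKO, against 11.17 on Bmi1_KO, 11.27 on Mel18_KO and 11.19 on WT. It was therefore level (-0.09) where its relative Lgr5 was not. Rspo1 differed by -0.18, and Rspo2, Rspo3, Rspo4 and Lgr6 were under the floor on all arrays. Of 12 measured genes for Wnt ligands and their export 1 was lower and 0 higher, with a median of -0.02. The lower one was Wls, the carrier that brings Wnt proteins to the cell surface, which read 9.11 on DKO, against 10.10 on Bmi1_KO, 10.16 on Mel18_KO and 10.15 on WT (-1.04). Wnt5a differed by 0.54 and Wnt10a by -0.32, both from values near the floor.

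Frizzled receptors and co-receptors were divided. Of 12 measured, 0 passed 2-fold in either direction against WT, with a median of -0.16. Fzd6 was lower on DKO (-0.97 against WT, -1.25 against the single deletions), and Fzd1 was higher (0.70 and 1.14), so these passed 2-fold once WT was left out. Ror1, a receptor of the non-canonical branch, gave -0.78. Among 19 measured components of the beta-catenin pathway only Axin2 was 2-fold lower and 0 were higher, with a median of -0.04. Beta-catenin itself (Ctnnb1) differed by 0.43 and its partner Tcf7l2, the main TCF factor of intestinal epithelium, by 0.63, while Tcf7l1, which often acts as a repressor, differed by -0.54. Of 19 inhibitor genes 7 were over the floor and 0 passed 2-fold, with a median of -0.07. Tle3 gave 0.40, Apcdd1 -0.28 and Tle2 0.23.

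**Figure D3:**
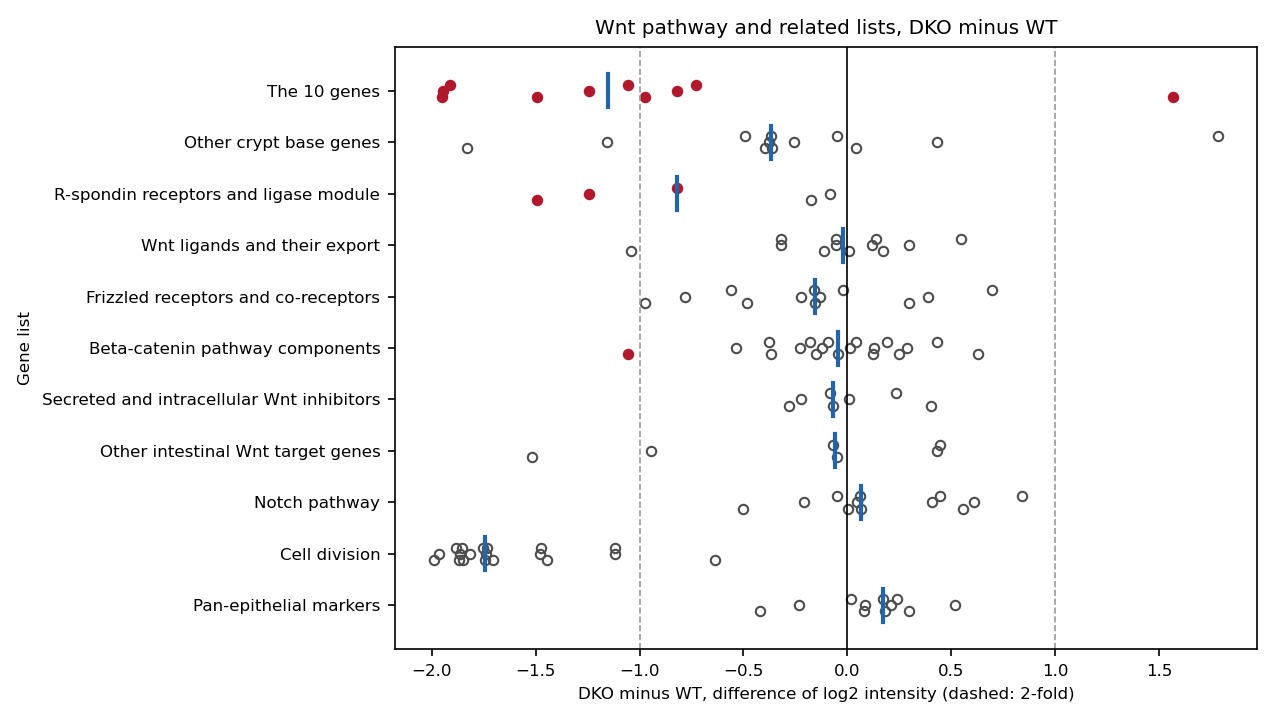
DKO minus WT difference of log2 intensity for genes over the floor in each list (open circles; the 10 genes in filled red), with the list median as a blue bar and 2-fold as dashed lines. Cell division genes and most of the 10 lie left of 0, while Wnt ligands, receptors, beta-catenin pathway components and inhibitors centre near 0.

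Other Wnt targets and crypt base genes differed in both directions. Of 6 measured further Wnt targets 1 was lower and 0 higher (median -0.06). Myc, the growth-promoting transcription factor, read 8.40 on DKO, against 9.13 on Bmi1_KO, 9.22 on Mel18_KO and 9.92 on WT. Its difference was -1.52 against WT and -0.77 against the single deletions. Like Sox9, it was also lower on both single-deletion arrays than on WT. Ccnd1, a G1 cyclin, gave -0.95, and Zfp703 0.45. Notum, Lef1, Sp5, Prox1 and Tnfrsf19 were under the floor on all arrays. Of 12 measured further crypt base genes 2 were lower, Cdca7 (-1.83) and Hopx (-1.16), and 1 was higher, Prom1 (1.78), with a median of -0.37. Cdca7 is a MYC target, Hopx marks slowly cycling crypt cells, and Prom1 encodes the membrane protein CD133. Of these genes 3 (Ephb3, Cd44 and Tnfrsf19) stand on both lists. Notch pathway genes, which govern the choice between absorptive and secretory fates, had a median of 0.06 with 0 of 12 past 2-fold. Notch2 (0.84), Rbpj (0.61) and Atoh1 (0.56) differed furthest.

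Cell division genes had low DKO values too, further below WT than the 10 genes. Of 19 measured, 18 passed 2-fold in the lower direction and 0 in the higher; their median was -1.74. Mki67, a marker of cycling cells, gave -1.45, and the mitotic regulators Plk1 and Cdc20 gave -1.99 and -1.96, with the cyclin Ccna2 at -1.88. The 10 genes were also set against the median of this list on each array, a comparison chosen after the values were seen. Their median in DKO against WT was then 0.60. This moves every gene up by the same amount, so counts past 2-fold on this scale would say nothing particular about the 10 genes. Ascl2 (-0.21), Myb (-0.20) and Lrig1 (-0.16) kept pace with cell division genes. Lgr5 (0.25), Znrf3 (0.50), Axin2 (0.69), Smoc2 (0.77), Rnf43 (0.93) and Sox9 (1.02) were less low, and Olfm4 gave 3.31. Whether the lower signal of the 10 genes follows the lower signal of dividing cells was not tested.

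Common epithelial genes were not lower as a set. Of 11 pan-epithelial markers 0 passed 2-fold between DKO and WT, the median was 0.17, and their summed intensity was 47933 on DKO, against 46262 on Bmi1_KO, 48053 on Mel18_KO and 44056 on WT. Epcam differed by 0.24, Krt20 by 0.52, Cdx2 by -0.42 and Elf3 by 0.29. DKO was the lowest array for 2 of the 11 markers and the highest for 5. Krt20 also stands on the list of mature colonocyte markers. Scaling each array to these markers moved the median DKO minus WT difference of all genes to -0.16, against -0.05 as deposited. With this scaling 7 of the 10 genes were 2-fold lower and 1 higher around a median of -1.25. Over all 12526 genes 1318 were then lower and 794 higher, in place of 1026 and 918. Mature colonocyte markers had a median of 0.25, with the chloride exchanger Slc26a3 (-1.60) and the water channel Aqp8 (-1.38) lower and the peptide guanylin, Guca2a (1.70), higher. Guca2a was also above WT on Bmi1_KO (1.01) and Mel18_KO (1.02), and DKO exceeded the mean of the single deletions by 0.68. Some markers of blood and stromal cells were higher on DKO. The summed intensity of 14 leukocyte and lymphoid markers was 10718 on DKO, against 4733 on Bmi1_KO, 2874 on Mel18_KO and 3680 on WT. Of the 13 over the floor 7 were 2-fold higher on DKO than on WT, led by Ptprc (2.34), Adgre1 (2.24) and Cd68 (2.06). Adgre1 and Ms4a1 passed the floor on DKO alone, so their place in this count already required a high DKO value. The 14 stromal markers summed to 8421 on DKO, against 5017 on Bmi1_KO, 2293 on Mel18_KO and 3335 on WT, with 4 of 13 at least 2-fold higher on DKO than on WT, led by Pecam1 (1.74), Vim (1.72) and Dcn (1.68), and Vim made up most of that sum on DKO. Of the lymphoid markers, Ms4a1 just passed 2-fold (1.01), and Cd3e (0.63), Cd4 (0.30), Cd8a (0.18) and Cd79a (0.36) did not. The stromal markers Thy1 (0.07) and Des (-0.47) did not pass 2-fold either. These markers were named after their values were seen. Cd3d and Lum were the markers of these lists under the floor on every array.

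Markers of neutrophils and of small bowel, cells in which Olfm4 is also known, were higher on DKO, the array on which Olfm4 passed the floor. Below the floor the order of the other 3 arrays for Olfm4 cannot be read. Of 13 neutrophil markers 12 were 2-fold higher and 0 lower in DKO against WT, around a median of 2.10, and the granule genes Ngp and Mmp8 and the chemokine receptor gene Cxcr2 gave 2.93, 2.66 and 2.41. On Bmi1_KO 8 of them were higher than on WT (median 1.15) and on Mel18_KO 8 were lower (median -1.22). Their summed intensity was 30747 on DKO, against 16676 on Bmi1_KO, 2488 on Mel18_KO and 7460 on WT. None of these neutrophil markers was under the floor on all arrays. Of 12 small bowel and Paneth markers over the floor 9 were higher on DKO and 1 lower, with a median of 2.49. Apoa1, an apolipoprotein, gave 5.44, and the brush border enzymes Enpep and Alpi gave 4.18 and 3.50. Enpep passed the floor on DKO alone, so its place in this count already required a high DKO value. All 15 such markers summed to 9803 on DKO, against 2654 on Bmi1_KO, 3098 on Mel18_KO and 2581 on WT. The defining enterocyte enzymes Lct and Sis, with Fabp1, were under the floor on all arrays. The part of either cell source in the Olfm4 signal was not tested.

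**Figure D4:**
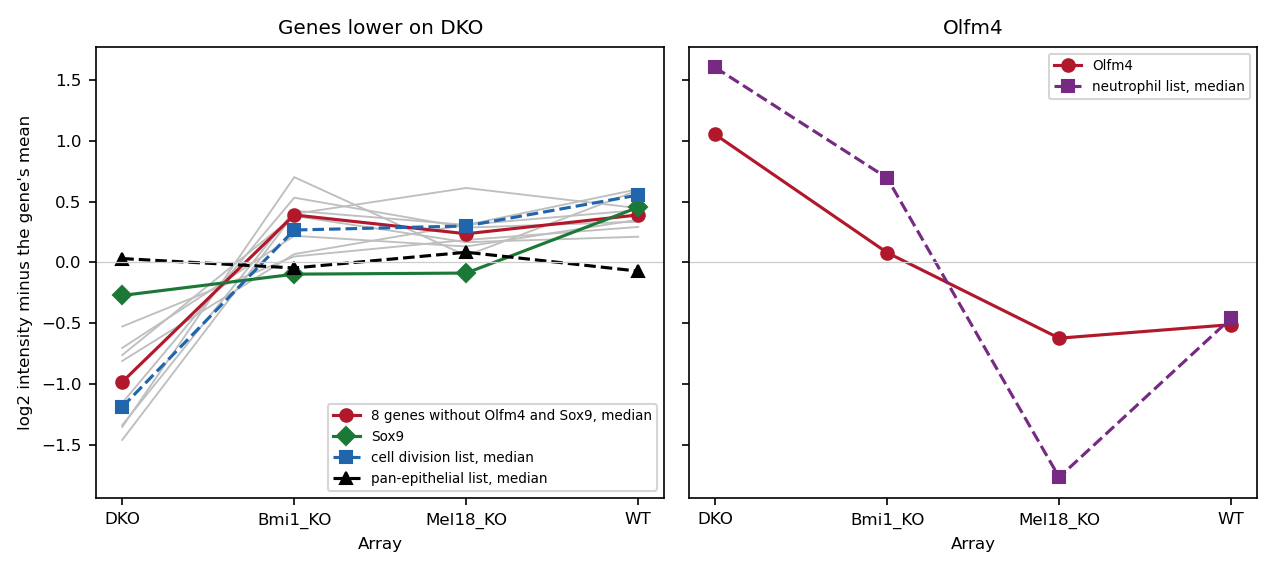
Log2 intensity minus each gene's own mean over the 4 arrays. Left, the 8 genes other than Olfm4 and Sox9 (grey lines, red median) are low on DKO as the cell division median is. The pan-epithelial median is flat, and Sox9 is low on all 3 deletion arrays. Right, Olfm4 is shown beside the neutrophil median, both highest on DKO. The other 3 Olfm4 values lie under the floor and have no order.

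Likeness of the profiles of the 10 genes over the 4 arrays was measured as the Euclidean distance between log2 values centred on each gene's mean. The closest pairs were Smoc2 and Axin2 (0.23), Axin2 and Rnf43 (0.26), Axin2 and Znrf3 (0.27), Rnf43 and Znrf3 (0.34) and Lgr5 and Myb (0.34). Among the 8 genes without Olfm4 and Sox9 the median distance over 28 pairs was 0.62, and the most distant pair of the 10 was Lrig1 and Olfm4 (2.98). With 4 arrays such likeness is common: 566 of the 12516 other genes lay within 0.5 of Lgr5. The nearest was Htr4, a serotonin receptor, at a distance of 0.052, with 6.61 on DKO, against 8.31 on Bmi1_KO, 8.11 on Mel18_KO and 8.16 on WT. It was followed by Ppp1r1b (0.11), the potassium channel gene Kcnq1 (0.12), Lrig3 (0.14), a relative of Lrig1, and Foxred1 (0.14). Nearest to the median profile of the 10 genes were Xrcc5, Stoml2, Park7, Snrpb and Dnaja3, at distances of 0.043 to 0.054, which serve DNA repair, mitochondria, oxidative stress defence, splicing and protein folding in mitochondria. Within 0.5 of that median lay 2159 genes, so it was a common profile on these arrays.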

How the data were processed

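Colon epithelial RNA from 4 genotypes was hybridised to Affymetrix Mouse Gene 1.0 ST arrays, 1 array each, from 200 ng of total RNA per the labels' protocols. The authors deposited a linear intensity for each probe set. The submitters' processing notes name RMA and Affymetrix Expression Console. RMA makes the arrays share 1 distribution by quantiles, so a difference common to most genes would be lost. The sources used here give no software version or genome build. Intensities carry no molecule counts, so the number of arrays limits the precision.

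Of 35556 probe sets, 21789 had 1 symbol in the platform annotation, 1621 several and 12146 none, and probe sets with several were left unnamed. The RefSeq table held the gene identifier of 21698 single-symbol probe sets. The brightest probe set stood for each of 19938 genes, log2 was taken, and the 12526 genes at 6 or more on the highest array were analysed. A gene was counted as lower or higher at 2-fold or more, with no test between single arrays. For average changes, limma 3.58.1 was run under R version 4.3.3 (lmFit, eBayes, Benjamini-Hochberg over all genes analysed, threshold 0.05). This fit and the 2-fold counts were tested on simulated data. Differences were computed with Python 3.11.15, numpy 2.4.6 and pandas 2.3.3. Promoter sequences are from RefSeq (GRCm38.p6). The 10 genes, the 16 other lists and the tests were chosen with earlier results of these data known. The genes named are the 10, the genes furthest apart between DKO and WT in each list (up to 3), 6 context genes (Mki67, Epcam, Ptprc, S100a8, Bmi1 and Pcgf2, with S100a8 at 2.10 for DKO minus WT), the nearest profiles, and a few genes under the floor. In the R-spondin list only 2 genes besides the 10 were over the floor. Some lymphoid and stromal markers were also named, after their values were seen. List genes with no matching probe set, among them Tcf7, Ephb2 and Soat1, were not analysed here. Alternatives were no floor, a floor of 8, median centring, cyclic loess, averaging the probe sets of a gene, log2 of the intensity plus 32, a trend in eBayes, and 1.5-fold and 3-fold thresholds. Scaling to pan-epithelial markers was added after the data were seen.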

Additional observations from a re-analysis of the deposited data

Results flagged for a closer look

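For 3 of the 10 genes the difference made by loss of Bmi1 had opposite signs with and without Mel18, and the gap between them was at least 2-fold. It was 1 array against 1 in each case and the gap itself was not tested. This gap is the same value as the departure from additivity given above, so it is not a further result. For Lgr5, DKO minus Mel18_KO was -1.45 and Bmi1_KO minus WT was 0.20, a gap of -1.64. For Ascl2 these were -1.41 and 0.11, a gap of -1.52. For Smoc2 they were -0.93 and 0.17, a gap of -1.10. The Bmi1_KO minus WT values of Ascl2 and Smoc2 were within the spread of a typical gene between these arrays (0.19), and that of Lgr5 was at it.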

How the results depend on the processing

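Single-gene differences were recomputed 325 times. Those reported as at least 2-fold kept their direction each time, and only these were checked for it. Smaller ones could change sign. With median centring, Mel18_KO minus WT went from -0.05 to 0.01 for Lgr5 and from -0.05 to 0.02 for Smoc2. Of the 325, 314 moved by less than 0.19. The other 11, for Lgr5, Ascl2, Znrf3 and Olfm4, came from adding 32 before the log, which compresses dim genes. Many of the 314 could not move. A change of floor leaves a gene's values as they are, and each of the 10 genes had only 1 probe set to average. Median centring and pan-epithelial scaling add only 1 constant per array. Adding 32 also brought the median of the 10 genes to -0.96 for DKO against WT, and left 0 genes higher against the single deletions and 0 above additivity. A floor of 8 kept 5 of the 10 genes. It left 2 lower and 0 higher for DKO against WT and 3 and 0 against the single deletions. Below and above additivity it left 3 and 0. Over the 7476 genes that passed this floor, the counts in the same order were 820 and 612, 679 and 634, and 652 and 698. At 3-fold the counts of the 10 genes were 3 and 0, 3 and 0, and 2 and 0. Over all 12526 genes they were 198 and 432, 109 and 423, and 129 and 470. At 1.5-fold 1 gene (Olfm4, under the floor on both arrays) was higher on Bmi1_KO than on WT, as were 253 of all genes. Median centring, cyclic loess and scaling to pan-epithelial markers left each count of the 10 genes within 1.5 times of the reported one. Having no floor and taking the mean of probe sets could not change these counts. Over all genes, cyclic loess left 521 below additivity (805 as reported). The limma test called 0 of all genes under every alternative run, so its 0 of the 10 genes says nothing of stability. No paired analysis was possible because each genotype had 1 array. Over all genes, adding 32 left 40 higher on Bmi1_KO than on WT (69 as reported), 8 higher and 62 lower on Mel18_KO than on WT (18 and 102), and 542 lower on DKO than on the single deletions (816). The floor of 8 and pan-epithelial scaling left 8 and 10 higher on Mel18_KO (18). For DKO against WT, 1794 were higher and 2524 lower at 1.5-fold, and 432 and 198 at 3-fold. Dim signal limits Olfm4 on 3 arrays and Ascl2 on DKO.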
